A study of Mus musculus with 6 samples.

Results

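Ribosome biogenesis and nucleolar factors are the proteins that transcribe, modify, cut and package ribosomal RNA. They were followed here as 46 genes, chosen by name and with earlier results of these data known. These were 15 factors of the small ribosomal subunit, 16 of the large subunit, 8 proteins of small nucleolar ribonucleoproteins (snoRNPs), 3 subunits of RNA polymerase I and 4 other nucleolar proteins. Of these, 44 were measured, among 19567 features tested in all, of which 13369 were named genes. Utp18, a small-subunit processome protein, was well above background on 0 of the 6 arrays. Lyar, a nucleolar regulator of growing cells, was well above background on 1 control array and on no ADP array. Both were left out. Each of the other 44 was well above background on all 6 arrays.

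The cells were macrophages grown from C57BL/6 bone marrow for 7 days in medium that held L929-conditioned medium as the source of M-CSF, and this culture was shared by both groups. The ADP group, 3 samples, received 100 µM ADP for 6 h, and the control group, 3 samples, a control treatment of the same length that the labels do not detail. The donors differed and the experiments were independent, according to the submitters, and each sample had its own single-colour Agilent array. The labels give the same strain and no genotype for both groups.

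In background terms, RNA polymerase I makes a long precursor of ribosomal RNA in the nucleolus. C/D-box snoRNPs guide methylation of that precursor and H/ACA-box snoRNPs guide pseudouridylation, while a large assembly, the small-subunit processome, and a series of pre-60S particles fold and cut it. Much of this machinery is a known target of the transcription factor MYC and is regulated with growth.

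The signal was well above background for 50.3% to 51.9% of 59305 non-control spots and saturated for none, and 3 arrays per group limit the precision. The arrays lay on 2 slides: ADP 1 shared slide 1 with controls 1 and 2, while ADP 2 and ADP 3 shared slide 2 with control 3. Levels of some transcripts, such as Utp20, differed between the slides. Each difference is therefore also given with the slide as a block, that is, taken within slides, and for each slide alone. The slide cannot be told apart from any other difference between these sets of samples. All 10 macrophage markers listed were well above background on all 6 arrays. Of the neutrophil markers, 5 of the 7 on the array were above background on all 6 arrays and Ngp on none, and their summed log2 level was 4.75 to 4.87 in controls and 4.98 to 5.27 with ADP, mostly through S100a8. The 6 stromal markers summed to 3.94 to 4.07 in controls and 4.02 to 4.14 with ADP. No B-cell, erythroid or mast-cell marker was above background on all 6 arrays. Flt3 and Siglech were the only dendritic markers, of 5, and Cd3e and Lck the only T and NK markers, of 6, that were. The dendritic sum ranged from 5.46 to 7.39 in controls and from 5.47 to 7.57 with ADP. The part of these other markers in the results was not tested. In bulk samples, fewer cells of a type and less RNA per cell cannot be told apart.

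Levels below are log2 processed signals minus that of the array's 75th percentile, so that a level of 0 equals the percentile, and every difference is ADP minus control. Levels of different genes come from different probes and are not set against each other. Most transcripts of the machinery read lower with ADP, by small amounts: 36 of 44 differences were below 0 (81.8%, against 46.9% of all features tested), with a median of -0.18 against 0.02 for all features, or -0.11 without control 3. The range ran from -0.42 for Rrp12 to 0.27 for Rrp1b, and no member differed 2-fold. By limma with Benjamini-Hochberg adjustment over all features, no member and no other feature passed an adjusted p of 0.05 without a block. The smallest adjusted p was 0.315 among members and 0.259 among all features, while 2418 features had an unadjusted p under 0.05 (12.4%). Of the members, 6 had an unadjusted p under 0.05, all lower with ADP (13.6%, against 5.58% of all features and 6.49% of named genes in that direction) and none higher (against 6.78%). They were the large-subunit factors Ppan, Grwd1, Nop2 and Noc2l and the snoRNP proteins Nolc1 and Gar1. Groups did not overlap for 11 members lower with ADP (25.0%, against 9.15% of all features) and for no member higher with ADP (against 10.1%).

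With the slide block, 39 of 44 members were below 0 (88.6%, against 49.1% of features) with a median of -0.21, and the median standard error of the members went from 0.136 to 0.0953. Of the members, 19 were lower at an unadjusted limma p under 0.05 (43.2%, against 12.7% of features and 15.1% of named genes), and none were higher (against 11.2%). No feature passed adjustment in this fit either, the smallest adjusted p by limma with Benjamini-Hochberg adjustment being 0.0727 among all features and 0.0772 among members. The median was -0.16 on slide 1 and -0.30 on slide 2, and 32 members were below 0 on both slides (72.7%, against 30.2%).

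**Figure D1:**
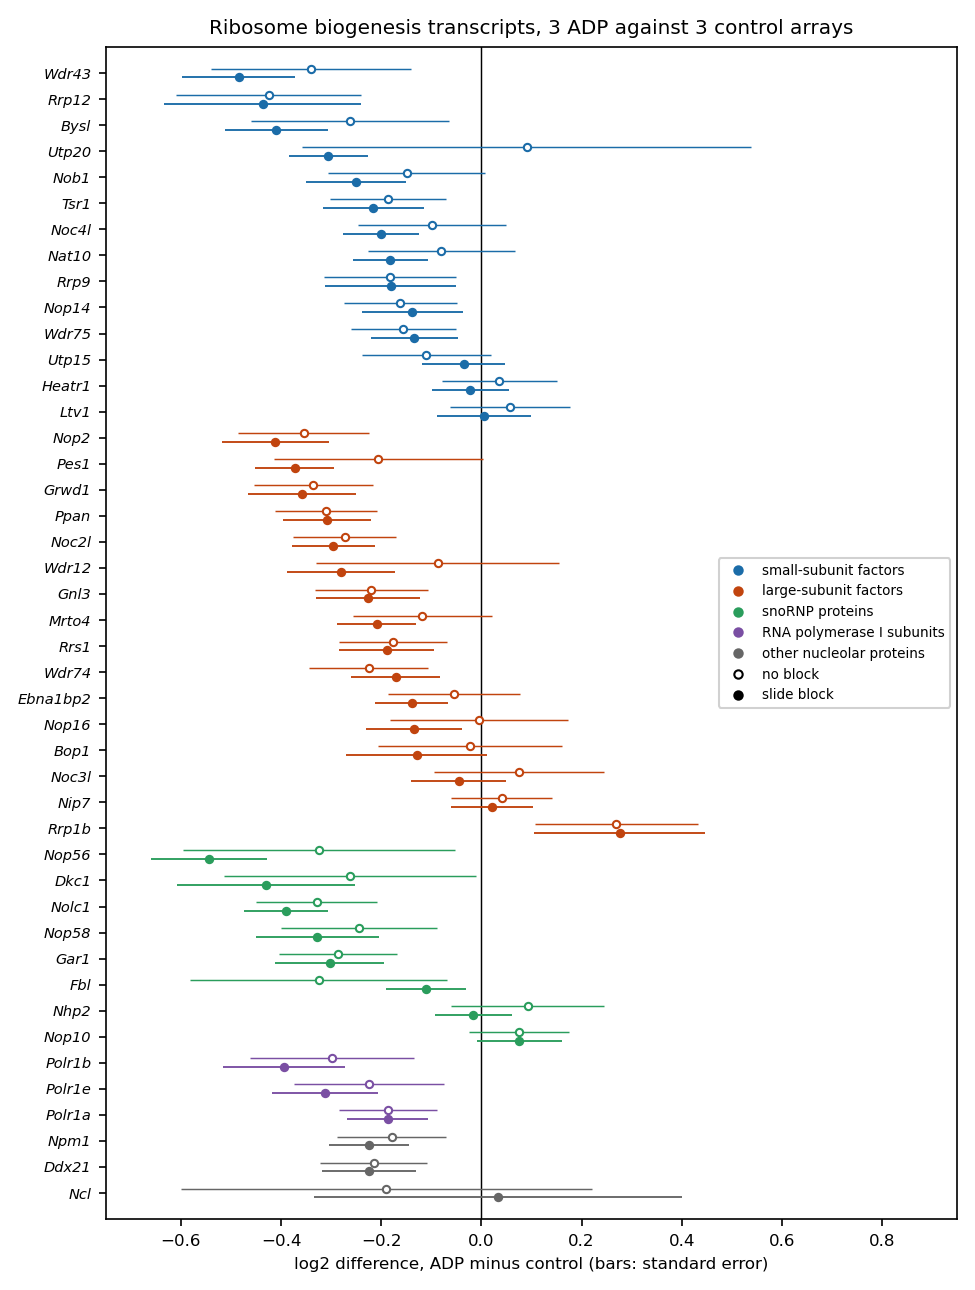
Log2 difference, ADP minus control, for each of the 44 measured transcripts (x axis), coloured by role; open points are from the fit without a block, filled points from the fit with the slide block, and bars are standard errors. Filled points lie left of 0 for 39 of 44 transcripts, and Rrp1b lies farthest to the right.

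When the variance was in addition allowed to follow the signal level and outlying variances were treated robustly (trended, robust variances in limma, with the slide block), 1826 features passed an adjusted p of 0.05: 945 lower (4.83%) and 881 higher (4.5%). Of the members, 7 passed, all lower with ADP (15.9%, against 4.83% of features and 6.31% of named genes). They were the C/D-box core protein Nop56, the snoRNP chaperone Nolc1, the processome protein Wdr43, the large-subunit factors Pes1, Nop2 and Noc2l, and the pre-40S factor Bysl. These calls rested on the single arrays. Without control 1, 0 members passed (features called lower: 0.981%), without control 2, 10 did (5.06%), and without control 3, 0 (0.164%). Without ADP 1, 3 members passed (4.68%), without ADP 2, 6 (4.27%), and without ADP 3, 1, Nop56 (1.24%). Without control 3, slide 2 held no control, and without ADP 1, slide 1 held no ADP array. The calls also rested on the trended variance, since 0 members and 0 features passed with robust but untrended variances. With trended variances that were not robust, 7 members passed (features called lower: 4.65%).

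On build mm9, as the files give them, the probes lie at chr2:130104982-130105041 for Nop56, chr19:46158875-46158934 for Nolc1, chr17:72007156-72007215 for Wdr43, chr11:3879948-3880007 for Pes1, chr6:125094661-125094720 for Nop2 and chr17:47738282-47738341 for Bysl, and that of Noc2l is listed as unmapped. Their exons and UTRs were not assigned here.

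The promoters of these 7 genes are shown because the machinery is known as a MYC target and MYC with its partner MAX binds the E-box CACGTG. Windows are from RefSeq (GRCm38.p6), 5′ to 3′ on the gene's strand, 150 bases before to 30 after the start: Nop56 chr2:130274262-130274441 (plus strand), Nolc1 chr19:46075697-46075876 (plus strand), Wdr43 chr17:71616065-71616244 (plus strand), Pes1 chr11:3963825-3964004 (plus strand), Nop2 chr6:125131733-125131912 (plus strand), Bysl chr17:47611463-47611642 (minus strand), Noc2l chr4:156235865-156236044 (plus strand). Capitals mark CACGTG, which reads the same on both strands, and its variant CACGCG, or CGCGTG on the other strand.
Nop56: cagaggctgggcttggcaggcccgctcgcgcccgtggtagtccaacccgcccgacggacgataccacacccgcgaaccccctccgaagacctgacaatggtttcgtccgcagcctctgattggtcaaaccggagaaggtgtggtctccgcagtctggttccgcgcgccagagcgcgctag
Nolc1: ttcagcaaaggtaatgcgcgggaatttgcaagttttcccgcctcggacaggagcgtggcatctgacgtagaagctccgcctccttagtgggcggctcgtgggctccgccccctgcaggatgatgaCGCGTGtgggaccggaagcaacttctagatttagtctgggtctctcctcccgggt
Wdr43: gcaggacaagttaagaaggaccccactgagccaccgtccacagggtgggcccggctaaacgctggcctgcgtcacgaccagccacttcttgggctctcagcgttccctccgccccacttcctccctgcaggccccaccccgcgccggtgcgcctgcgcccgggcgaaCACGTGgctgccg
Pes1: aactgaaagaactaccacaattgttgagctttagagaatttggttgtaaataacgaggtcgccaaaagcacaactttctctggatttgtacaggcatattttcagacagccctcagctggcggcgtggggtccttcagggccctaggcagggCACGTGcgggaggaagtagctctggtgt
Nop2: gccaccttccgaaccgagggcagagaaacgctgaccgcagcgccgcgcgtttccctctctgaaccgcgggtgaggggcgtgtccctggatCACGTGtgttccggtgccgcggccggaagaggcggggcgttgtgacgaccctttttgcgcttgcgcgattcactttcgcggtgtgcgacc
Bysl: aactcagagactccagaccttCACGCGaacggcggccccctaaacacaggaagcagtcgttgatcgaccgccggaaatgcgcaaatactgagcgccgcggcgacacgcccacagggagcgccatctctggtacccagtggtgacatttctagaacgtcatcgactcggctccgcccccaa
Noc2l: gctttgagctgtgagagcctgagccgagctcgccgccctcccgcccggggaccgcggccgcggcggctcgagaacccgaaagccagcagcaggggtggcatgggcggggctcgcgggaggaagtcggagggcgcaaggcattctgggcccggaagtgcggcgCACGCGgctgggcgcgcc

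Of the 7, Wdr43, Pes1 and Nop2 held CACGTG, and Nolc1, Bysl, Noc2l and Pes1 held CACGCG or its reverse, the Pes1 copy lying upstream of the stretch printed. The Nop56 window held neither. Over the full windows of 250 bases before and 50 after the start, 41 of the 46 genes had an entry, and Fbl, Bop1, Rrp12, Rrs1 and Npm1 had none. CACGTG was in 8 of the 41 (19.5%, exact 95% interval 8.82% to 34.9%, counting error only), against 11.5% of 10544 tested genes and 8.09% of all 27025 genes with a window. The other members with CACGTG were Tsr1, Ltv1, Utp20, Utp18 and Grwd1. CACGCG or CGCGTG was in 13 of 41 (31.7%, against 18.9% of tested genes and 10.5% of all). CATGTG or CACATG, another E-box form, was in 9 of 41 (21.95%, against 10.9% and 15.9%). The 3 motifs cannot match the same 6 bases, and a match describes letters, not binding. Noc2l had 2 windows in the table, of which 1 is printed. Myc itself read 1.13, 0.92 and 0.29 in controls 1 to 3 and 0.64, 0.44 and -0.09 in ADP 1 to 3. ADP 1 was below both controls of slide 1 and ADP 3 below control 3, but ADP 2 was above control 3, so the groups overlapped (difference -0.45 ± 0.28 SE, limma, adjusted p = 0.580; -0.26 with the slide block).

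The snoRNP proteins had the lowest median of the 3 larger classes, -0.27 over 8 genes, with 6 below 0. The medians were -0.25 on slide 1, -0.37 on slide 2 and -0.32 with the slide block, where 4 of 8 were lower at an unadjusted p under 0.05 (against 12.7% of features and 15.1% of named genes). Without a block the median was -0.12 without control 3 and -0.15 without ADP 1. Nop56, which with Nop58 and fibrillarin forms the protein core of C/D-box snoRNPs, read 3.87, 3.72 and 4.46 in controls 1 to 3 and 3.26, 4.07 and 3.75 in ADP 1 to 3. The groups overlapped over both slides, but each ADP array was below every control of its own slide. Its differences were -0.53 on slide 1, -0.55 on slide 2 and -0.54 ± 0.12 (SE) with the slide block, 1.46-fold lower, with an adjusted limma p of 0.0215 under trended, robust variances. Its other probes read -0.40 and -0.19 in the fit without a block.

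Nop58 read 2.04, 1.68 and 2.17 in controls and 1.59, 1.84 and 1.72 with ADP. ADP 1 was the lowest of all 6 arrays, and the groups overlapped through control 2 (difference -0.24, -0.33 with the slide block). Fbl, the methyltransferase fibrillarin, read 3.50, 3.40 and 2.78 in controls and 3.32, 2.74 and 2.65 with ADP. Most of its spread lay between the slides, and its difference of -0.33 became -0.11 ± 0.08 (SE) with the slide block.

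Nolc1, which carries snoRNPs to the nucleolus, read 3.08, 2.94 and 3.16 in controls and 2.58, 2.84 and 2.76 with ADP. All ADP arrays were below all controls (difference -0.33 ± 0.12 SE, limma, adjusted p = 0.342; -0.42 on slide 1 and -0.36 on slide 2), and the adjusted limma p under trended, robust variances with the slide block was 0.0249. The other Nolc1 probe read -0.285, -0.38 and -0.55 in controls and -0.26, -0.63 and -0.91 with ADP (-0.20 without a block). On that probe ADP 1 was above both controls of slide 1, while ADP 2 and ADP 3 were below control 3. Of the H/ACA-box core, Gar1 read 2.67, 2.69 and 2.81 in controls and 2.45, 2.57 and 2.28 with ADP. Its groups did not overlap (-0.29 ± 0.12 SE, limma, adjusted p = 0.395). Dkc1, the pseudouridine synthase dyskerin, differed by -0.26 without and -0.43 with the slide block, at an adjusted limma p of 0.183 under trended, robust variances.

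The remaining H/ACA proteins read otherwise. Nhp2 read 5.29, 5.19 and 5.53 in controls and 5.19, 5.55 and 5.54 with ADP. Nop10 read 3.79, 3.77 and 3.87 in controls and 3.94, 3.80 and 3.91 with ADP. Both groups overlapped for each of these genes, with differences of 0.09 and 0.08, and with the slide block Nhp2 was at -0.02 and Nop10 at 0.08. Within H/ACA particles, then, Gar1 and Dkc1 had negative values and Nop10 and Nhp2 values near 0. The difference between these genes was not tested.

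**Figure D2:**
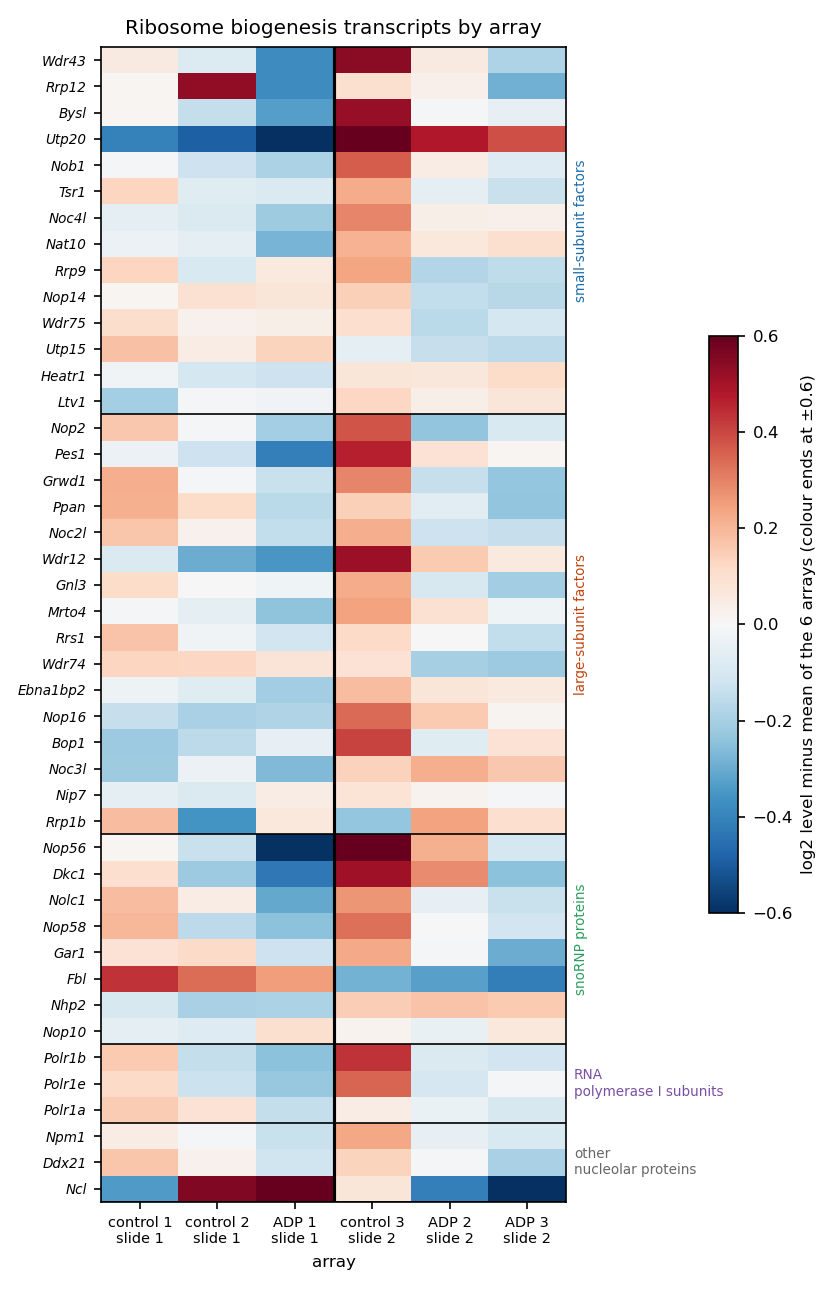
Level of each of the 44 transcripts on each array, in log2 units relative to the transcript's mean over the 6 arrays, with arrays ordered by slide; the colour scale is blue below and red above that mean and ends at 0.6 either way. Control 3 is above the mean for most transcripts, and Ncl, Fbl and Utp20 show patterns that part from the rest.

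Factors of the large subunit, 16 genes, had a median of -0.15 with 13 below 0, and -0.20 with the slide block, where 14 were below 0 (87.5%, against 49.1% of features) and 7 were lower at an unadjusted p under 0.05 (43.8%, against 12.7% of features and 15.1% of named genes). Without a block the median was -0.03 without control 3, -0.04 without ADP 1 and -0.23 without control 2. The medians were -0.16 on slide 1 and -0.29 on slide 2. Ppan, a pre-60S assembly factor, had the smallest p of the members: 2.93, 2.83 and 2.86 in controls and 2.56, 2.65 and 2.48 with ADP. Every ADP array was below every control (-0.31 ± 0.10 SE, limma, adjusted p = 0.315), and the difference was -0.32 on slide 1 and -0.30 on slide 2.

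Grwd1, a chaperone of a large-subunit ribosomal protein, read 1.25, 1.02 and 1.32 in controls and 0.89, 0.89 and 0.79 with ADP. Nop2, a methyltransferase of the large-subunit ribosomal RNA, read 4.25, 4.08 and 4.46 in controls and 3.88, 3.85 and 3.996 with ADP. Neither pair of groups overlapped, and the differences were -0.34 ± 0.12 and -0.36 ± 0.13 (SE). On the other probe of Grwd1 the groups overlapped, and ADP 1 was above both controls of slide 1 (-0.44 without a block). Noc2l, of the Noc complexes that accompany pre-60S particles, read 3.90, 3.76 and 3.95 in controls and 3.59, 3.60 and 3.59 with ADP. Its ADP arrays lay within 0.02 of each other, below all controls (-0.27 ± 0.10 SE, limma, adjusted p = 0.353). Under trended, robust variances with the slide block, the adjusted limma p was 0.0311 for Nop2, 0.0471 for Noc2l, 0.0713 for Grwd1 and 0.0549 for Ppan. Gnl3, the nucleolar GTPase nucleostemin, read 2.09, 1.99 and 2.21 in controls and 1.96, 1.89 and 1.78 with ADP, again without overlap (-0.22, limma, adjusted p = 0.503).

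Pes1, Bop1 and Wdr12 form the PeBoW complex, needed for the large-subunit rRNAs. Pes1, given here after its values were seen, read 1.94, 1.85 and 2.44 in controls and 1.56, 2.06 and 1.99 with ADP, overlapping across slides but not within them. It was -0.21 without a block and -0.37 ± 0.08 (SE) with it, and its adjusted limma p was 0.0289 under trended, robust variances. Its other probe read -1.28, -0.93 and -1.77 in controls and -0.82, -1.49 and -1.80 with ADP (-0.04 without a block). On that probe ADP 1 was above both controls of slide 1 and ADP 2 above control 3, while ADP 3 was below control 3. The probes of Pes1 thus did not read alike within slides. Wdr12 was at -0.09 without and -0.28 with the slide block, and Bop1 at -0.02 and -0.13.

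Against the direction of the class, Rrp1b, a nucleolar protein related to the yeast processing factor Rrp1, read -0.90, -1.45 and -1.32 in controls and -1.02, -0.84 and -0.99 with ADP. It was the highest difference of the members, 0.27 ± 0.16 (SE; limma, adjusted p = 0.580), at 0.15 on slide 1 and 0.40 on slide 2, and its groups overlapped through control 1. Noc3l, a partner of Noc2l, read 1.16, 1.33 and 1.51 in controls and 1.104, 1.59 and 1.53 with ADP, a difference of 0.07 that was -0.05 with the slide block. Nip7, a factor of pre-60S maturation, read 3.84, 3.81 and 3.98 in controls and 3.94, 3.92 and 3.89 with ADP. Its groups overlapped with a difference of 0.04, whereas its other probe was 0.50 higher (limma, adjusted p = 0.288). On that probe all ADP arrays, at 1.01, 1.14 and 1.43, were above all controls, at 0.59, 0.79 and 0.71. The other large-subunit genes, Wdr74, Rrs1, Mrto4, Ebna1bp2 and Nop16, lay between -0.23 and -0.01. Of them, only Wdr74 had groups that did not overlap.

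Factors of the small subunit, 14 measured genes, had a median of -0.15 with 11 below 0, and -0.19 with the slide block, where 13 were below 0 (92.9%, against 49.1% of features) and 5 were lower at an unadjusted p under 0.05 (35.7%, against 12.7% of features and 15.1% of named genes). Without a block and without control 3 the median was -0.09. The medians were -0.12 on slide 1 and -0.28 on slide 2, and in all 14 genes the groups overlapped (groups apart and lower with ADP: 0, against 9.15% of all features). Rrp12, which takes part in export and maturation of pre-40S particles, had the most negative value without a block: -1.97, -1.45 and -1.88 in controls and -2.36, -1.95 and -2.27 with ADP. ADP 2 lay between controls 1 and 2, so the groups overlapped (-0.42 ± 0.18 SE, limma, adjusted p = 0.422; adjusted p = 0.214 under trended, robust variances with the slide block).

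Wdr43 belongs to the subcomplex that links the processome to transcription of ribosomal DNA. It read 2.05, 1.91 and 2.53 in controls and 1.62, 2.05 and 1.81 with ADP. Within each slide its ADP arrays were below the controls, with -0.36 on slide 1 and -0.61 on slide 2. Its difference with the slide block was -0.49 ± 0.11 (SE), and its second probe was at -0.41 without a block (limma, adjusted p = 0.324). Bysl, the pre-40S factor bystin, given here after its values were seen, read 2.46, 2.31 and 2.97 in controls and 2.12, 2.44 and 2.40 with ADP. It was lower within both slides too (-0.27 and -0.55; -0.41 with the slide block). The adjusted limma p under trended, robust variances was 0.0278 for Wdr43 and 0.0339 for Bysl.

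Tsr1, a GTPase-like pre-40S factor, read 1.27, 1.07 and 1.36 in controls and 1.06, 1.08 and 1.01 with ADP. Wdr75, of the same subcomplex as Wdr43, read 2.34, 2.26 and 2.33 in controls and 2.27, 2.07 and 2.13 with ADP. Their differences were -0.19 and -0.16, and in both genes a single array, ADP 2 for Tsr1 and ADP 1 for Wdr75, overlapped with control 2. Nop14, a processome protein, read 1.03, 1.11 and 1.16 in controls and 1.09, 0.87 and 0.85 with ADP. Its difference of -0.16 lay on slide 2, at -0.30, with 0.02 on slide 1.

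Values above 0 without a block came from Ltv1, Heatr1 and Utp20. Ltv1, needed for late pre-40S steps, read 3.21, 3.41 and 3.54 in controls and 3.39, 3.45 and 3.49 with ADP. Heatr1, a processome protein linked to polymerase I transcription, read 4.18, 4.10 and 4.28 in controls and 4.08, 4.28 and 4.32 with ADP. Both were near 0, with 0.06 and 0.04 without a block and 0.01 and -0.02 with it. Utp20, a very large scaffold of the processome, read -1.27, -1.35 and -0.10 in controls and -1.59, -0.38 and -0.47 with ADP. Its arrays divided by slide, and 0.09 without a block became -0.31 ± 0.08 (SE) with it (limma, adjusted p = 0.121 under trended, robust variances). The others, Rrp9 of the U3 snoRNP, the endonuclease Nob1, Utp15, Noc4l and the RNA acetyltransferase Nat10, lay between -0.18 and -0.08, each with overlapping groups.

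**Figure D3:**
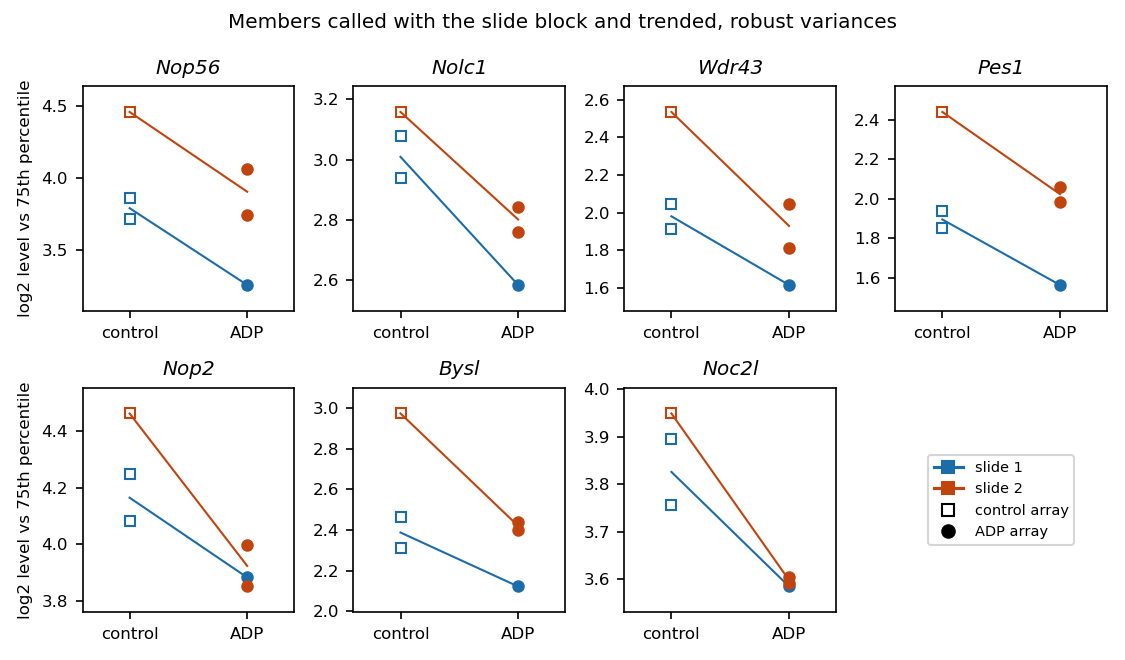
Log2 level relative to the array's 75th percentile for the 7 transcripts called with the slide block and trended, robust variances, 1 point per array, with open squares for controls, filled circles for ADP, colour for the slide and lines joining the means within a slide. On each slide the ADP points lie below the control points for all 7 transcripts.

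RNA polymerase I was represented by 3 subunits, with a median of -0.22, and -0.31 with the slide block, and all 3 were below 0 on both slides. Without a block, leaving out an array gave medians from -0.34, without control 2, to -0.16. Polr1a, the catalytic subunit, read 2.57, 2.51 and 2.46 in controls and 2.28, 2.38 and 2.32 with ADP. Its groups did not overlap (-0.19 ± 0.10 SE, limma, adjusted p = 0.513). Polr1b, the other subunit of the active centre, read 0.39, 0.09 and 0.67 in controls and -0.01, 0.15 and 0.12 with ADP, overlapping through control 2 alone (-0.30; -0.39 with the slide block, where the limma adjusted p = 0.0785 under trended, robust variances). Polr1e, a subunit at the periphery of the enzyme, read 0.19, -0.06 and 0.42 in controls and -0.16, -0.03 and 0.06 with ADP. Control 2 again lay among the ADP arrays (-0.22; -0.31 with the slide block, where the limma adjusted p = 0.120 under trended, robust variances).

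The other nucleolar proteins had a median of -0.19 over 3 measured genes, or -0.04 with the mean of each gene's probes. Ddx21, an RNA helicase of rRNA processing, read 2.97, 2.83 and 2.94 in controls and 2.68, 2.80 and 2.61 with ADP. Npm1, the nucleolar chaperone nucleophosmin, read 6.34, 6.29 and 6.53 in controls and 6.17, 6.25 and 6.21 with ADP. Neither overlapped between groups, at -0.22 and -0.18, although 1 of the 3 other Npm1 probes was at 0.20. On the other probes of both genes the groups overlapped. Ncl, nucleolin, read 4.16, 5.06 and 4.57 in controls and 5.28, 4.09 and 3.85 with ADP. Its arrays were scattered, from 0.67 on slide 1 to -0.60 on slide 2, and its second probe had the opposite sign, so no direction could be read (-0.19 ± 0.41 SE). Over all members, 14 genes had several usable probes. In the fit without a block these had the same sign in 11, all but Ncl, Npm1 and Ebna1bp2.

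Taken by array, the medians of the classes kept to a similar order. Centred on each gene's mean, the median of all members was 0.05, -0.06 and 0.22 in controls 1 to 3 and -0.15, -0.01 and -0.10 in ADP 1 to 3, against values between -0.04 and 0.05 for all features. Control 3 was highest and control 2 lay between ADP 2 and ADP 3, so the groups overlapped across slides but not within them. In each of the 5 classes control 3 was highest. ADP 1 was lowest in 4, and in the other nucleolar proteins ADP 3 was.

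**Figure D4:**
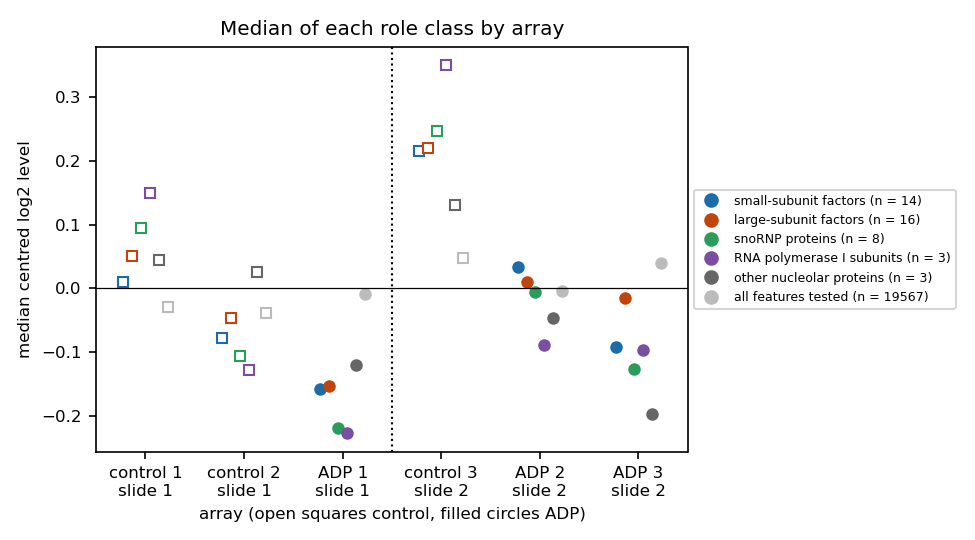
Median level of each class on each array, in log2 units centred on each gene's mean over the 6 arrays, with the number of genes per class and all features in grey. Control 3 is highest in all 5 classes, and ADP 1 is lowest in 4 of 5.

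Of the other genes of the pathway, outside the 46, fewer were below 0 and the median was nearer to it, a contrast that was not tested. Of 135 listed, 128 were measured, 77 were below 0 (60.2%) and the median was -0.04, or -0.08 with the slide block, where 25 were lower (19.5%, against 12.7% of features and 15.1% of named genes) and 3 higher (2.34%, against 11.2%) at an unadjusted p under 0.05. Under trended, robust variances 7 passed lower (5.47%, against 4.83% of features and 6.31% of named genes). In that fit 2 passed higher (1.56%, against 4.5% and 5.03%). The other large-subunit genes, 46 measured, had a median of -0.07 with 34 below 0. In the slide-block fit these genes had -0.10 with 41 below 0 (89.1%, against 87.5% of the large-subunit members and 49.1% of features). Their smallest p values were those of Mdn1, the giant ATPase that strips factors from pre-60S particles (-0.36, limma, adjusted p = 0.293), and, above 0, Eif6, which keeps the subunits apart (0.27). The other small-subunit genes, 41 measured, had a median of -0.03, with Nop9 at -0.40 (limma, adjusted p = 0.315) and Riok2 at 0.11.

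Among 12 snoRNP and assembly genes the median was 0.02. It was -0.08 with the slide block, with 10 below 0 (83.3%, against 87.5% of the snoRNP members and 49.1% of features). Znhit6, an assembly factor of C/D-box snoRNPs, was at -0.36 and passed under trended, robust variances with the slide block (limma, adjusted p = 0.0362), while Coil, coilin of Cajal bodies, was at 0.15. Polymerase I genes outside the 3 subunits, 7 of 12 measured, had a median of 0.07, from Taf1d at -0.23 to Ubtf, the architectural factor of ribosomal DNA, at 0.35. Exosome, Xrn2 and RNase MRP genes, 22 measured, had a median of -0.02, with Rpp40 at -0.61 and Exosc9, a core exosome subunit, at 0.52. Exosc9 passed under the trended, robust fit with the slide block (limma, adjusted p = 0.0267). Exosc5 passed in that fit in the other direction (-0.51 with the slide block, limma, adjusted p = 0.0219). Mphosph6 passed higher (0.30 with the slide block, limma, adjusted p = 0.0438). In the MYC network, 9 of 12 measured, the median was -0.07 with 6 below 0. In the slide-block fit it was -0.14 with 7 below 0. Mga, a MAX partner, was at 0.37 (limma, adjusted p = 0.298). Mxd4 was at -0.38 without and -0.54 with the slide block. It was the only gene of this list to pass under trended, robust variances with the slide block (limma, adjusted p = 0.0316).

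Cytosolic ribosomal protein genes, which code for the proteins that these factors assemble, had medians near 0 within slides. Of 77 measured, 73 were above 0 without a block, with a median of 0.14, but with the slide block the median was 0.01, with 33 below 0 and none at an unadjusted p under 0.05 in either direction. Slide medians were -0.002 and 0.01. The smallest p was that of Rpl28, at 0.41 (limma, adjusted p = 0.555). The members' medians, -0.16 and -0.30 on the same slides, were not tested against these.

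**Figure D5:**
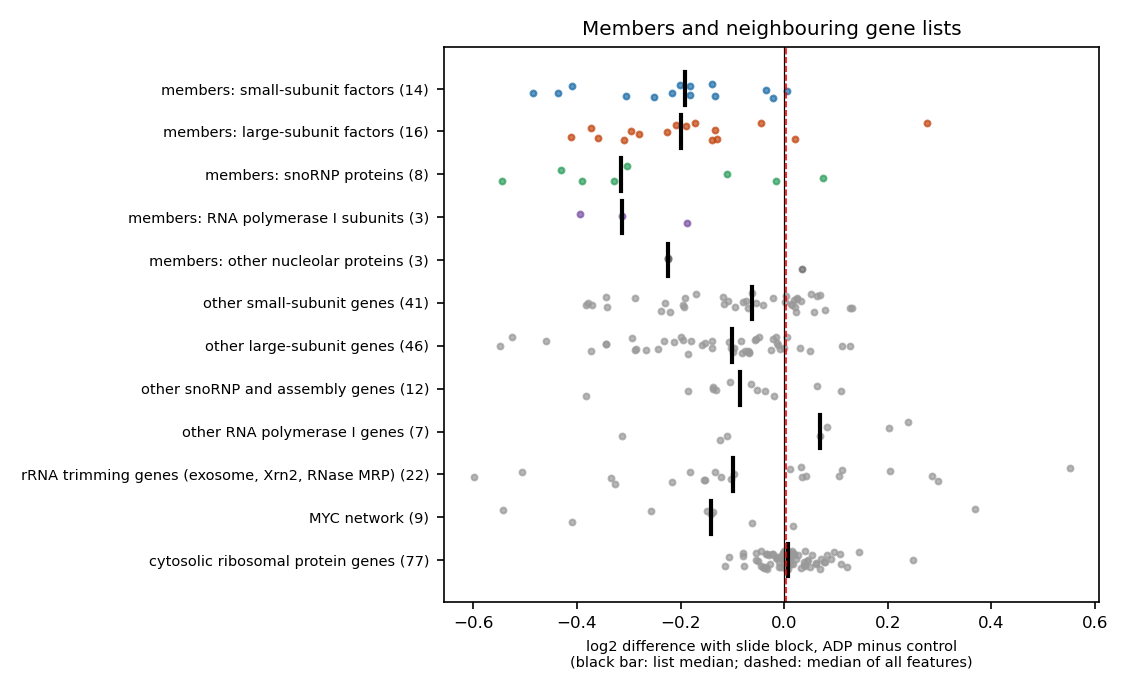
Log2 difference with the slide block, ADP minus control, for each gene of the 5 member classes and of 7 neighbouring lists (1 point per gene, jittered vertically, with gene numbers in brackets); black bars are list medians and the dashed line is the median of all features. Medians of the member classes lie between -0.32 and -0.19, those of other biogenesis lists between -0.10 and 0.07, and that of ribosomal protein genes at 0.01.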

How the data were processed

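RNA of 6 samples was measured on single-colour arrays. The deposited intensity came from Agilent Feature Extraction (10.7.1.1), per the file headers and the submitters' processing notes, with background subtracted within the array and no scaling between arrays. A deposited value table held the same intensity, unscaled (100% of 55681 probes within 0.001 log2).

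Control spots were left out, and spots of a probe averaged. Outlier spots were left out of that mean unless all spots of the probe on the array were outliers. The log2 intensity was taken relative to the array's 75th percentile. Probes were kept when well above background on all 3 arrays of a group, and the probe with the highest mean stood for its gene. Symbols were updated through RefSeq (GRCm38.p6): 26582 probes by accession, 2602 by symbol and 492 by synonym, with 26005 keeping the file's name. Groups came from the sample titles.

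Groups were compared in R 4.3.3 by limma 3.58.1 (two-sided, no block), with Benjamini-Hochberg adjustment over all 19567 features and a threshold of 0.05. A permutation of 3 against 3 arrays was not used, as it cannot reach that threshold. The slide block, the trended and robust variances, other scalings, filters and probe rules and leaving out arrays were alternatives. Those applied to the slide-block fit with trended, robust variances were chosen after seeing the data. The fit was tested on simulated data. Members and gene lists were chosen with earlier results of these data known. Named with values on each array were the 5 smallest p values of each larger class, all polymerase I and other nucleolar members, members opposite in sign to the median, and, after their values were seen, Pes1 and Bysl. From each other list, the gene with the smallest p in each direction was named, and from the ribosomal protein genes the gene with the smallest p. Exosc5, Mphosph6 and Mxd4 were added after their values were seen.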

Additional observations from a re-analysis of the deposited data

How the results depend on the processing

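By limma, 0 features, 0 members and 0 other biogenesis genes passed adjustment in the fit without a block and under each alternative tested except the slide block with trended, robust variances, where 1826, 7 and 9 passed; single slides were not tested; 2418 features and 6 members had an unadjusted p under 0.05. The calls within slides rest on the settings, among members and among all features. In the slide-block fit with trended, robust variances, 13 members passed with median scaling (features called lower: 9.06%). With the slide block and robust but untrended variances, 0 members and 0 features did. When an array was left out of the slide-block fit with trended, robust variances, 0 to 10 members passed (features called lower: 0.164% to 5.06%). The cause was not tested.

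The members' median stayed below 0 under all alternatives run, from -0.11 (without control 3) to -0.30 (slide 2 alone). On slide 2 alone it was -0.29 for the large-subunit factors, -0.40 for the polymerase I subunits and -0.30 for the other nucleolar proteins, which were at -0.0442 with the mean of a gene's probes. Leaving out an array gave -0.23 to -0.026 for the large-subunit factors and -0.34 to -0.12 for the snoRNP proteins, nearest to 0 without control 3 in both. Of features at an unadjusted p under 0.05, 45.1% were lower with ADP in the fit without a block. The share was 53.0% with the slide block, 52.8% with quantile normalization and 50.9% with median scaling. It was 37.1% without control 3 and 20.9% on the unscaled values.

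Of 44 members, 32 kept their sign under 17 tested settings, among them the 6 with an unadjusted p under 0.05. On a slide alone, where there was no test, 12 turned, including 5 of those 32: Nop14, Rrp9 and Utp15 on slide 1, and Nip7 and Nop10 on slide 2. With the slide block, with or without trended, robust variances, Heatr1 turned to -0.0224, Ncl to 0.0335, Nhp2 to -0.0158, Noc3l to -0.0451 and Utp20 to -0.31. Nop16 turned to 0.0265 with normexp, 0.0061 with quantile normalization and 0.059 unscaled. Unscaled, Bop1 turned to 0.0424 and Ebna1bp2 to 0.0099; with the mean of probes Ebna1bp2 turned to 0.0136 and Ncl to 0.0029; with median scaling Heatr1 turned to -0.0007. Leaving out an array turned Bop1 (-0.14 to 0.17), Ebna1bp2 (-0.10 to 0.0372), Heatr1 (-0.0097 to 0.11), Ltv1 (-0.031 to 0.13), Nat10 (-0.15 to 0.0392), Ncl (-0.63 to 0.0878), Noc3l (-0.0155 to 0.23), Noc4l (-0.17 to 0.0227), Nop16 (-0.10 to 0.16), Utp20 (-0.13 to 0.49) and Wdr12 (-0.26 to 0.15).

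With the replicate number as a block, 0 features passed. Deviations of same-numbered samples correlated at 0.42, -0.40 and 0.43, and those of pairs on the same slide at 0.42 to 0.47, so the numbers were not taken to pair the samples.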
